A study of Mus musculus with 2 samples.

Results

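Major histocompatibility complex (MHC) class II molecules are surface receptors that show peptides to CD4 T cells, and 7 genes of that system were examined in mouse CD8 T cells after prednisolone, a synthetic glucocorticoid. They encode the α and β chains (H2-Aa, H2-Ab1 and H2-Eb1), the peptide-loading factor H2-M (H2-DMa and H2-DMb1), the invariant chain (Cd74) and the transactivator of the family (Ciita). The genes were chosen by name with earlier results of these arrays known, and all of their probes were taken, 12 of the 56605 on the array, for 7 of 23462 genes. The differences between the conditions are therefore given as a description and support nothing further.

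Prednisolone was compared with vehicle in splenic CD8 T cells from C57BL/6 mice, each condition on 1 array. Prednisolone cells received 1 µM of the drug and vehicle cells received none of it. In both, naive cells, low in CD44 and high in CD62L, were obtained with a CD8 isolation kit and an antibody to CD44, and activated for 2 days by plate-bound antibodies, 3 µg/ml against the T cell receptor β chain and 1 µg/ml against CD28, with 10 ng/ml interleukin-2. They then spent 3 days on a fresh plate with interleukin-2, and RNA was measured on day 5. Whether prednisolone was also present after the transfer, and how many mice or cultures gave the cells of each array, is not stated in the labels. A single array per condition allows no test, so values are described and nothing measures how cultures of one condition vary.

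A class II molecule pairs an α with a β chain in the endoplasmic reticulum around the invariant chain, which blocks the groove and directs the complex to endosomes. There proteases trim the invariant chain, and H2-M exchanges its last fragment for a peptide. CIITA switches the family on by joining a set of proteins bound at the X and Y boxes of each promoter. In mice the system is a mark of B cells, dendritic cells and macrophages, whereas activated T cells express it in humans and little or not at all in mice. The H2-Ea gene is defective in C57BL/6, so these mice make I-A but no surface I-E.

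Values are the processed signal of each spot, a linear intensity that the scanner software had already corrected for background. A difference is log2 of that signal minus the array's 75th percentile (386.9 intensity units with prednisolone and 400.4 with vehicle), prednisolone minus vehicle, and ± is the software's error of the spots. The software called 53.5% of the spots well above background on both arrays. The dimmest of the probes so classed and not flagged as outliers had 11.8 intensity units with prednisolone and 12.9 with vehicle. The RNA carried the markers of CD8 T cells, with all 6 of the 8 markers that had a value well above background on both arrays and Cd8a at −0.01 ± 0.14. Their median difference was −0.38. Of 4 CD4 T cell markers, 2 were also well above background on both arrays. Cd4 had 656 ± 65.6 intensity units with prednisolone and 640 ± 64.1 with vehicle on its unflagged probe. Foxp3 had 53.8 ± 5.91 with prednisolone and 93.8 ± 9.75 with vehicle. Cd40lg did not stand well above background on either array, and the Zbtb7b probe was flagged.

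Among the 6 class II genes that could be measured, 2 lay 2-fold or more below vehicle with prednisolone and 0 lay 2-fold or more above. Among all 13136 measured genes, 7.81% were that much lower and 6.87% that much higher, or 14.7% in either direction. When scaled on spike-in probes these were 5.12% lower and 10.9% higher. The members were selected on this contrast, so nothing is read from the comparison of shares. H2-Eb1 and Cd74 were the 2 lower genes, and both were dim. H2-Ab1 and H2-DMa lay below 0 by less than 2-fold, H2-DMb1 lay above 0, Ciita was at 0.02 and H2-Aa had no value. The median over the 6 genes was −0.87, with Cd74 at its bound, and that over all genes with a value was −0.0022.

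**Figure D1:**
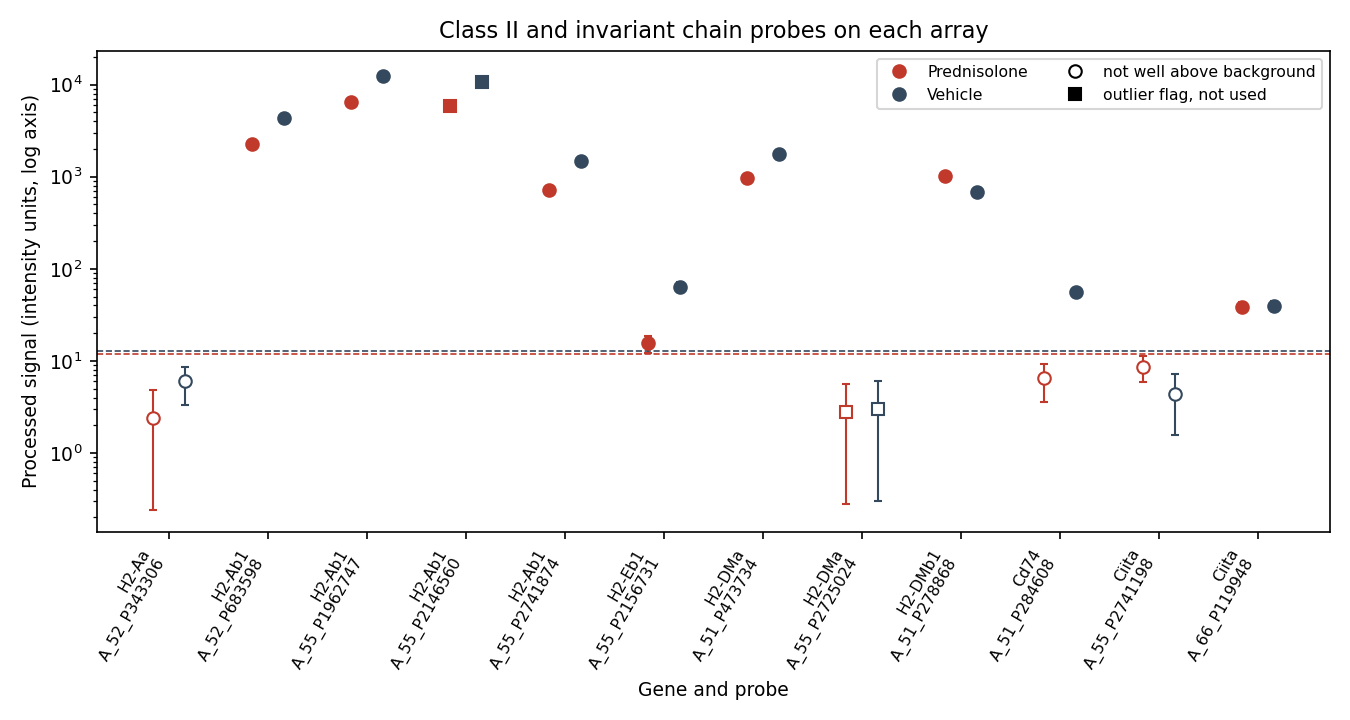
Processed signal (log axis) of every probe of the 7 genes with prednisolone (left of each pair) and vehicle (right), with the software's error as bars cut at the lower end where the error would reach 0. Open points are not well above background, squares carry an outlier flag, and dashed lines mark the dimmest probe well above background on each array. The 4 H2-Ab1 probes lie lower with prednisolone, and Cd74 lies below the dashed line there.

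H2-Ab1 encodes the β chain of I-A, the class II molecule of this strain, and was bright on both arrays. Its 3 usable probes gave 725, 2268 and 6508 intensity units with prednisolone, against 1483, 4335 and 12271 with vehicle, in the same probe order. Every one was lower with prednisolone. Their differences were −0.98, −0.89 and −0.87, and the gene's was −0.91 ± 0.12, or 1.88-fold lower. The fourth probe, left out because its local background was flagged as an outlier on both arrays, had 5823 with prednisolone and 10740 with vehicle, a difference of −0.83. Of all genes with a value, 9.04% had a lower difference than H2-Ab1.

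H2-Aa encodes the α chain that pairs with it, and its single probe did not stand well above background on either array. It gave 2.39 ± 2.40 intensity units with prednisolone and 5.98 ± 2.66 with vehicle. Of the negative control spots, 233 of 257 were at or above its signal on the prednisolone array and 0 of 269 on the vehicle array. No fold change is given for this gene, and whether its probe reports the transcript well was not tested.

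H2-Eb1 encodes the β chain of I-E. Its single probe gave 15.5 ± 3.21 intensity units with prednisolone and 64.0 ± 7.07 with vehicle. It was well above background on both arrays, although close to the limit with prednisolone. The difference was −1.99 ± 0.34, or 3.98-fold lower. In the uncorrected image the spot's median was 48 over a local background of 29 with prednisolone, and 100 over 32 with vehicle. After another background correction (normexp with an offset of 50) the difference was −0.71.

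H2-DMa and H2-DMb1 encode the 2 chains of H2-M, which act as a pair, and their differences had opposite signs. H2-DMa had 958 ± 95.9 intensity units with prednisolone and 1751 ± 175 with vehicle, a difference of −0.82 ± 0.20 (1.77-fold lower). Its second probe, made to a predicted transcript and flagged with prednisolone, did not stand well above background on either array. H2-DMb1 had 1007 ± 101 with prednisolone and 680 ± 68.0 with vehicle, a difference of 0.62 ± 0.20 (1.53-fold higher). H2-DMa kept its sign and H2-DMb1 its own under all 11 other processing settings.

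Cd74 encodes the invariant chain, and its single probe was well above background with vehicle alone. It gave 6.44 ± 2.91 intensity units with prednisolone and 56.2 ± 6.37 with vehicle. Since the prednisolone signal is only a bound, Cd74 was at least 4.61-fold lower, set against the dimmest signal well above background. The spot's median was 40 over a local background of 28 with prednisolone, and 88.5 over 28 with vehicle. No negative control spot reached either signal. After normexp the bound was −0.74 on the log2 scale.

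Ciita encodes the transactivator, which binds no DNA itself and whose level normally sets that of the class II genes. One probe gave 38.5 ± 4.69 intensity units with prednisolone and 39.3 ± 4.85 with vehicle, well above background on both arrays. The difference was 0.02 ± 0.25. The other probe did not stand well above background on either array, with 8.50 ± 2.67 with prednisolone and 4.36 ± 2.77 with vehicle. Both probes are annotated to the same transcript, and the alternative first exons of Ciita were not analysed here.

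The errors above are technical. Among 299 probes printed 10 times on each array, the SD of the log2 difference between spots had a median of 0.028. The 95th percentile was 0.27. For the 29 of them with a vehicle level under −2 the median was 0.33 and the highest 0.67. H2-Eb1 and Cd74, at −2.65 and −2.83 with vehicle, were dimmer than that cut. The differences of H2-Ab1, H2-DMa and H2-DMb1 were larger than the 95th percentile over the 299 probes. That of H2-Eb1 was larger than the highest of the 29. None of this measures how 2 cultures of one condition would differ. In bulk RNA, fewer cells with a transcript and less of it per cell cannot be told apart.

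**Figure D2:**
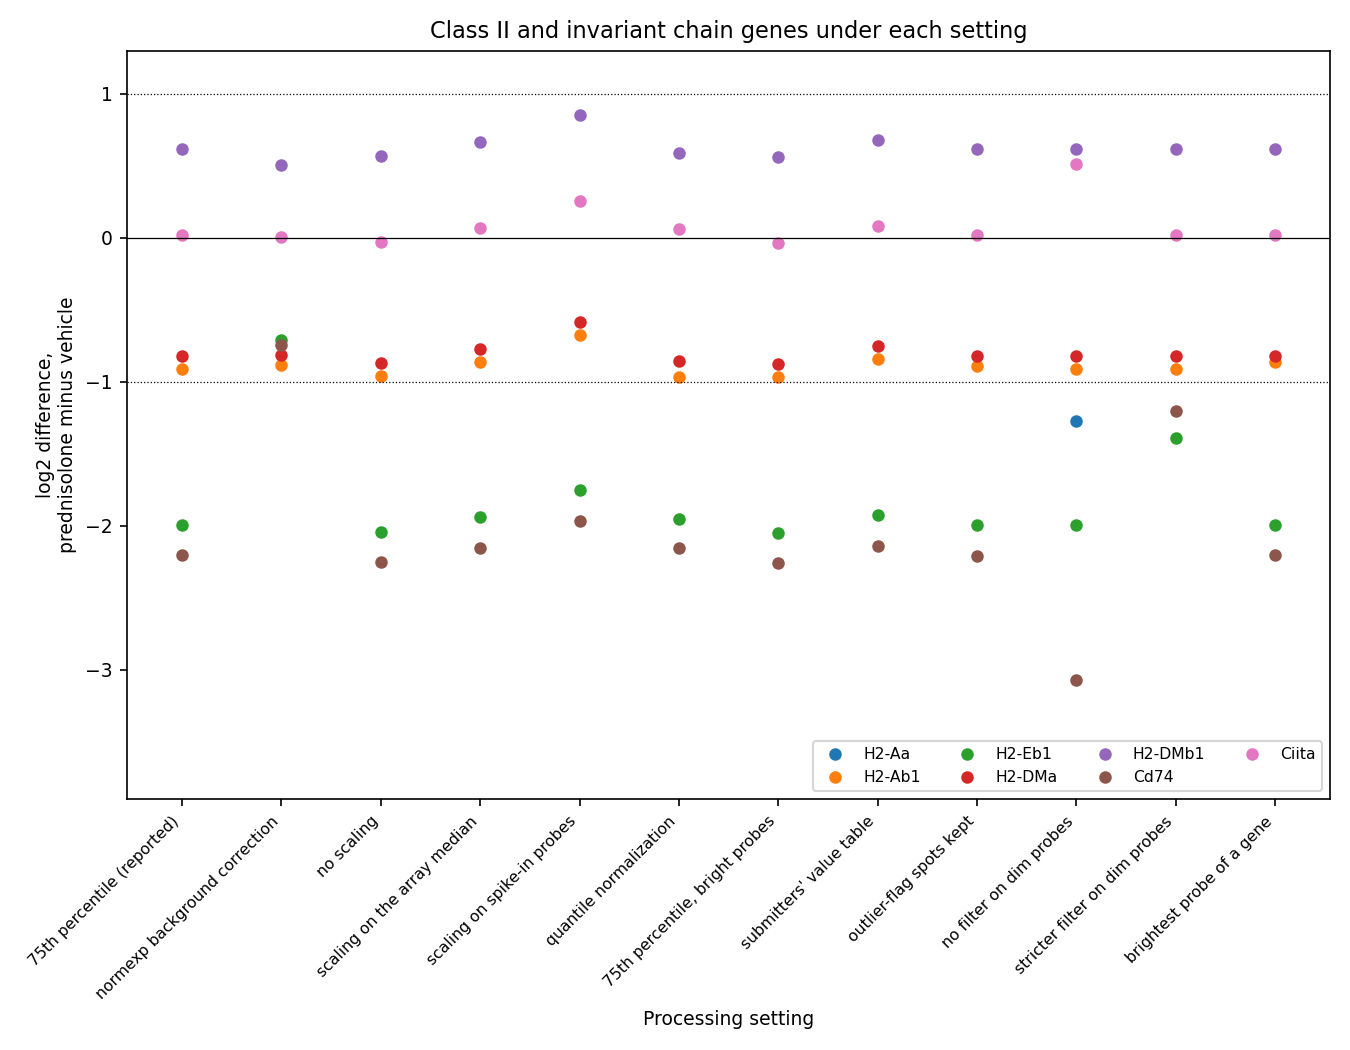
Log2 difference (prednisolone minus vehicle) of each of the 7 genes under the reported setting (left) and 11 others, with dotted lines at 2-fold. H2-Eb1 and Cd74 move from −1.99 and −2.21 to −0.71 and −0.74 after normexp, which adds 50 to every signal. H2-Ab1 stays between −0.97 and −0.67. H2-Aa has a value only without the filter on dim probes.

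The genes nearest to H2-Ab1, the member with the highest vehicle level, were sought by the distance between log2 levels over the 2 arrays. They were Acadl, which encodes a dehydrogenase of fatty acid oxidation (distance 0.068), Pdlim1 (0.083), the corepressor gene Tle4 (0.11) and Rab37 (0.12). Their differences were −0.92, −0.79, −1.03 and −0.88 in that order. With 2 arrays this likeness is a match of level and difference alone.

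The class II promoters are shown because CIITA acts through their boxes, and genes with differences of opposite sign can be set side by side. RefSeq windows (GRCm38.p6) of 250 bases before to 50 after the start were searched on both strands for ATTGG, the core of the Y box, and ACNGATG, a core of the X box. The array headers name an older build, so the windows were joined by gene name. Among the members, windows were searched for H2-Aa, H2-Eb1, H2-DMa and H2-DMb1. None was at hand for H2-Ab1 or Ciita, and Cd74 was left out of the search. The window of H2-Eb1, lower with prednisolone, lies at chr17:34305617-34305916 (plus strand), that of H2-DMb1, higher, at chr17:34152941-34153240 (plus strand), and that of H2-Aa at chr17:34287774-34288073 (minus strand). Each is written 5′ to 3′ along the gene, with matches in capitals.
H2-Eb1: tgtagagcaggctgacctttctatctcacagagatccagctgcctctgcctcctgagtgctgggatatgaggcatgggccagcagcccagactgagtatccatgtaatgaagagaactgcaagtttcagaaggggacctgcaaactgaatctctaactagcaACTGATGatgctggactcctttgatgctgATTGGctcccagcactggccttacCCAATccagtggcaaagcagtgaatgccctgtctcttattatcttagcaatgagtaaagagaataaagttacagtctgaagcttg
H2-DMb1: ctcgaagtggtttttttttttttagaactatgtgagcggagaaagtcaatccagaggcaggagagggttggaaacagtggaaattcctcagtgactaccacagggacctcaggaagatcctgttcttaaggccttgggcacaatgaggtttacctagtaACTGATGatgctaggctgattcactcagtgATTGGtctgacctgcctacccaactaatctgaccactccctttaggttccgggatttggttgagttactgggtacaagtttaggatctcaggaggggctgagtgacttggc
H2-Aa: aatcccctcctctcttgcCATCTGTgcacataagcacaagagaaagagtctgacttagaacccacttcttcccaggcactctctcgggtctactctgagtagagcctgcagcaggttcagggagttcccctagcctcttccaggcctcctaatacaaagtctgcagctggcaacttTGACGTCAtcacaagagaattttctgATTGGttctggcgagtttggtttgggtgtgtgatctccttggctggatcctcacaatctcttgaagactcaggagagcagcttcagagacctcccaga

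H2-Eb1 and H2-DMb1 each held ACNGATG followed by ATTGG on the same strand, with 22 bases between them in H2-Eb1 and 23 in H2-DMb1. This order, with a gap of 10 to 40 bases, occurred in 74 of 32851 promoter windows (0.225%), while ATTGG alone occurred in 37.4% and ACNGATG alone in 9.85%. In H2-Aa the ATTGG stood 44 to 48 bases before the start. The sole ACNGATG of H2-Aa lay on the other strand far upstream, and it held TGACGTCA, the form of the X2 box that a CREB dimer binds, a motif added after the windows were read (1.79% of windows). Neither window of H2-DMa held ACNGATG, and one held ATTGG. A match is not a shown binding site, and the lack of one says only that these letters are not in the window.

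The related genes H2-Eb2 and H2-DMb2 had the same arrangement, and the stretches around the boxes are set against those of their partners to show how close the copies are. H2-Eb1 (chr17:34305764-34305822) and H2-Eb2 (chr17:34325531-34325589) were identical at 39 of 59 bases, and H2-DMb1 (chr17:34153085-34153144) and H2-DMb2 (chr17:34145114-34145173) at 51 of 60, all on the plus strand with the box cores in capitals.
H2-Eb1: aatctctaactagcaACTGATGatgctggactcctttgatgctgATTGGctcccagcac
H2-Eb2: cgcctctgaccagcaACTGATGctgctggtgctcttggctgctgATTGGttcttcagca
H2-DMb1: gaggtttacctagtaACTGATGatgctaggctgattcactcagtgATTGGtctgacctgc
H2-DMb2: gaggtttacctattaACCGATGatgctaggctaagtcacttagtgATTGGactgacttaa

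**Figure D3:**
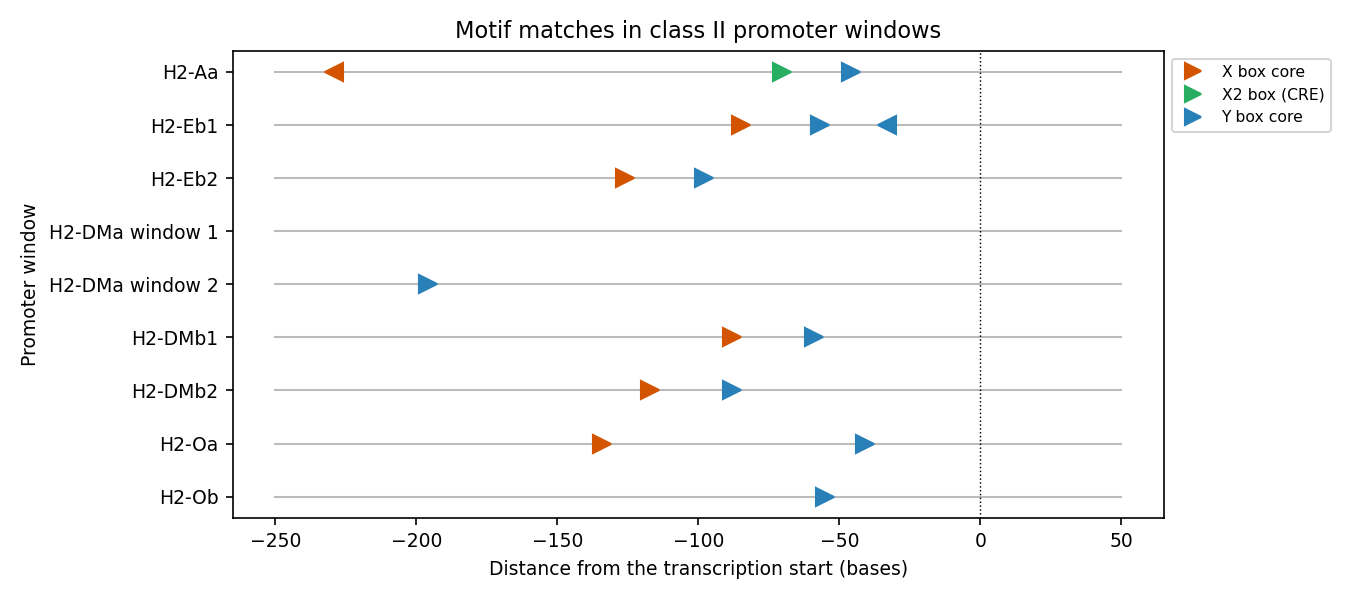
Positions of motif matches in the promoter windows of class II genes, in bases from the transcription start, with arrowheads for the strand relative to the gene. H2-Eb1, H2-Eb2, H2-DMb1 and H2-DMb2 show an X box core followed by a Y box core 22 to 23 bases on.

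The other class II genes had differences on both sides of 0. H2-DMb2, the second H2-M β gene, had 88.3 ± 9.18 intensity units with prednisolone and 49.1 ± 5.60 with vehicle, a difference of 0.90 ± 0.22, on the same side as H2-DMb1. The 2 genes are close copies, and whether their probes tell them apart was not tested. H2-Oa and H2-Ob encode H2-O, an inhibitor of H2-M that is typical of B cells, and both were lower with prednisolone. H2-Oa had 1307 ± 131 with prednisolone and 2733 ± 273 with vehicle (−1.01 ± 0.20, 2.02-fold lower), and H2-Ob was −0.81 ± 0.15 with probes at −0.82 and −0.81. H2-Oa was at least 2-fold lower under 8 of 12 settings. H2-Eb2 did not stand well above background on either array, and no probe was matched to H2-Ea.

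The class II genes lie side by side on chromosome 17 with genes of the class I pathway among them, so the differences were also read in gene order. From H2-Oa the order was Brd2, H2-DMa, H2-DMb2, H2-DMb1, Psmb9, Tap1, Psmb8, Tap2, H2-Ob, H2-Ab1, H2-Aa, H2-Eb1 and H2-Eb2, with an unmeasured non-coding gene before H2-Ab1. The only genes above 0 among the 11 with a value were the neighbours H2-DMb2 and H2-DMb1, close copies whose probes may not tell them apart. Of all 13136 genes with a value, 6585 lay below 0. The region holds members selected on this contrast, so nothing is read from the signs along it. On one side of H2-DMb2 and H2-DMb1, H2-DMa was −0.82. On the other side Psmb9 and Tap1, which serve the class I pathway, were −0.93 ± 0.20 and −1.21 ± 0.14. Psmb8 (−0.29 ± 0.20) and Tap2 (−0.44 ± 0.20) were nearer to 0. The Tap2 probes differed. The bright probe, with 20180 intensity units with prednisolone and 23225 with vehicle, was −0.15. The dim probe, with 15.1 and 25.8, was −0.72.

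**Figure D4:**
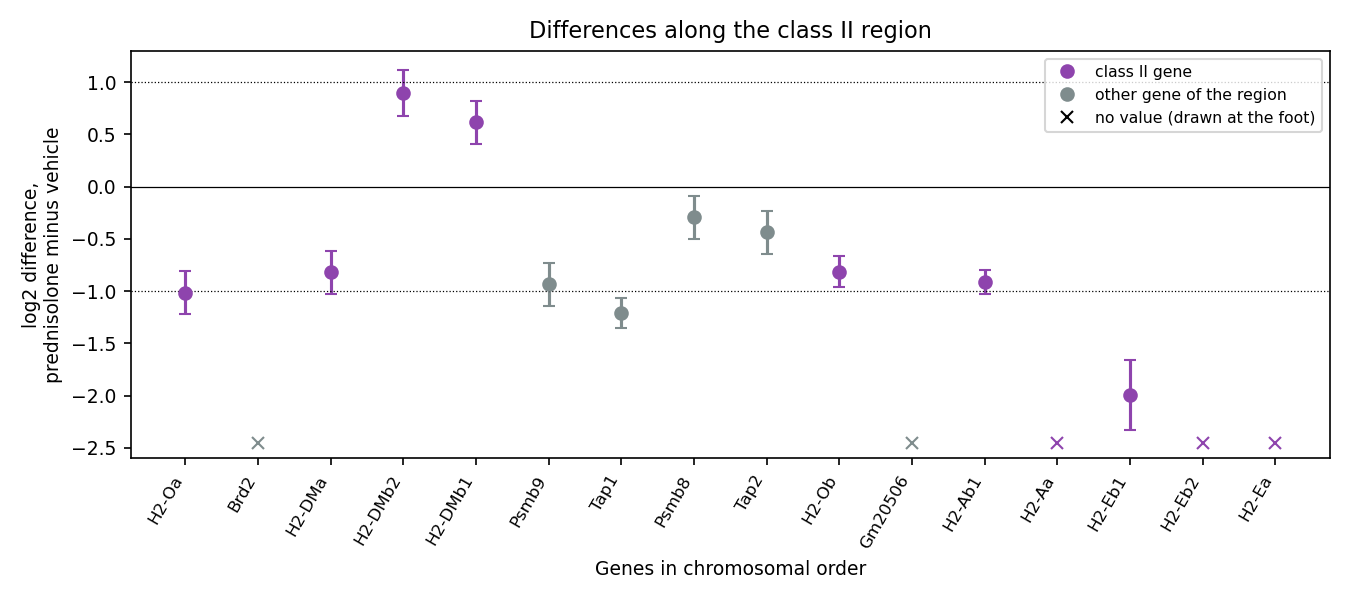
Log2 difference (prednisolone minus vehicle) of the genes from H2-Oa to H2-Ea in chromosomal order, with the software's error as bars and dotted lines at 2-fold. Crosses at the foot mark genes with no value. H2-DMb2 and H2-DMb1 (0.90 and 0.62) stand above 0 between neighbours below it.

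Of the 10 genes of the X and Y box proteins and their coactivators, 9 had a value, 1 was at least 2-fold lower and 0 higher, with a median of −0.10. For this and the list counts below, the shares over all 13136 measured genes were 7.81% lower and 6.87% higher. Rfxank, a subunit of the RFX complex on the X box, had 420 ± 42.1 intensity units with prednisolone and 1181 ± 118 with vehicle, a difference of −1.44 ± 0.20. It was at least 2-fold lower under all 12 settings. The other subunit genes were Rfxap, at −0.37 ± 0.20, and Rfx5, which had no value because 1 probe did not stand well above background on either array. Its second probe, flagged on both arrays, had 12.9 with prednisolone and 35.3 with vehicle, at least 2.64-fold lower if counted. The NF-Y genes of the Y box were at 0.16 (Nfya), 0.0059 (Nfyb) and 0.58 (Nfyc), and the coactivator genes Crebbp and Ep300 at −0.10 and 0.46.

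Interferon-γ is the main inducer of Ciita outside antigen-presenting cells, with IRF1 and USF1 among the factors at one of its promoters. Of 9 genes on this route, 7 had a value, with 1 at least 2-fold lower, 1 higher and a median of −0.60. Ifng, the cytokine gene, had 71.9 ± 7.56 intensity units with prednisolone and 524 ± 52.5 with vehicle, a difference of −2.82 ± 0.21, or −2.13 after normexp. Socs1, the gene of a feedback inhibitor of the pathway, was the higher one, at 1.17 ± 0.20. The receptor genes Ifngr1 and Ifngr2 were −0.60 and −0.77, Jak2 was −0.50 and Usf1 −0.19. Both Irf1 probes carried outlier flags and were not used, with differences of −0.84 and −0.56. Ciita itself was at 0.02 beside these values.

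Among factors that drive or silence Ciita in particular cell types, 5 had a value. Of these, 2 lay 2-fold or more above vehicle and 1 that far below, beside 6.87% and 7.81% of all measured genes. Irf8, a factor of myeloid and B lineages, had 1284 ± 128 intensity units with prednisolone and 5595 ± 560 with vehicle (−2.07 ± 0.20). Irf4 had 4784 ± 478 with prednisolone and 1150 ± 115 with vehicle (2.11 ± 0.20), and 1.23 when its flagged second probe was kept. Spi1, which encodes the myeloid and B cell factor PU.1, gave 47.8 ± 5.51 with prednisolone, and 2.90 ± 2.91 with vehicle, where it was not well above background. It was at least 3.85-fold higher, with 0.53 (log2) after normexp and 0.94 under the stricter filter on dim probes. Prdm1, the gene of a repressor of Ciita, was 0.73 ± 0.20, and the B cell factor Pax5 was −0.09 ± 0.44.

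The machinery that trims the invariant chain and turns class II over had 1 of 8 measured genes at least 2-fold lower, 0 higher and a median of −0.023. Ctss, the protease of the last trimming step in B cells and dendritic cells, was −0.08 ± 0.20, Ctsl was 0.07 ± 0.07, Ifi30, the gene of a lysosomal thiol reductase, was −0.17 ± 0.20, and Sppl2a, which cleaves the last fragment of the invariant chain in the membrane, was 0.03 ± 0.14. The exception was Cd83, whose protein shields class II from the ubiquitin ligase MARCH1. It gave 8.39 ± 2.64 intensity units with prednisolone and 45.4 ± 5.27 with vehicle, at least 3.73-fold lower, with −0.62 (log2) after normexp and −0.90 under the stricter filter. Among partners of surface CD74, the ligand gene Mif was −0.28 ± 0.07, Cd44 was −0.10 ± 0.14, and the chemokine receptor gene Cxcr4 was 1.04 ± 0.21, past 2-fold under 8 of 12 settings. Of the receptors that bind class II, Lag3 was −2.47 ± 0.15, with both probes at −2.47 and the gene at −1.88 after normexp, and Cd4 was 0.08 ± 0.20.

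**Figure D5:**
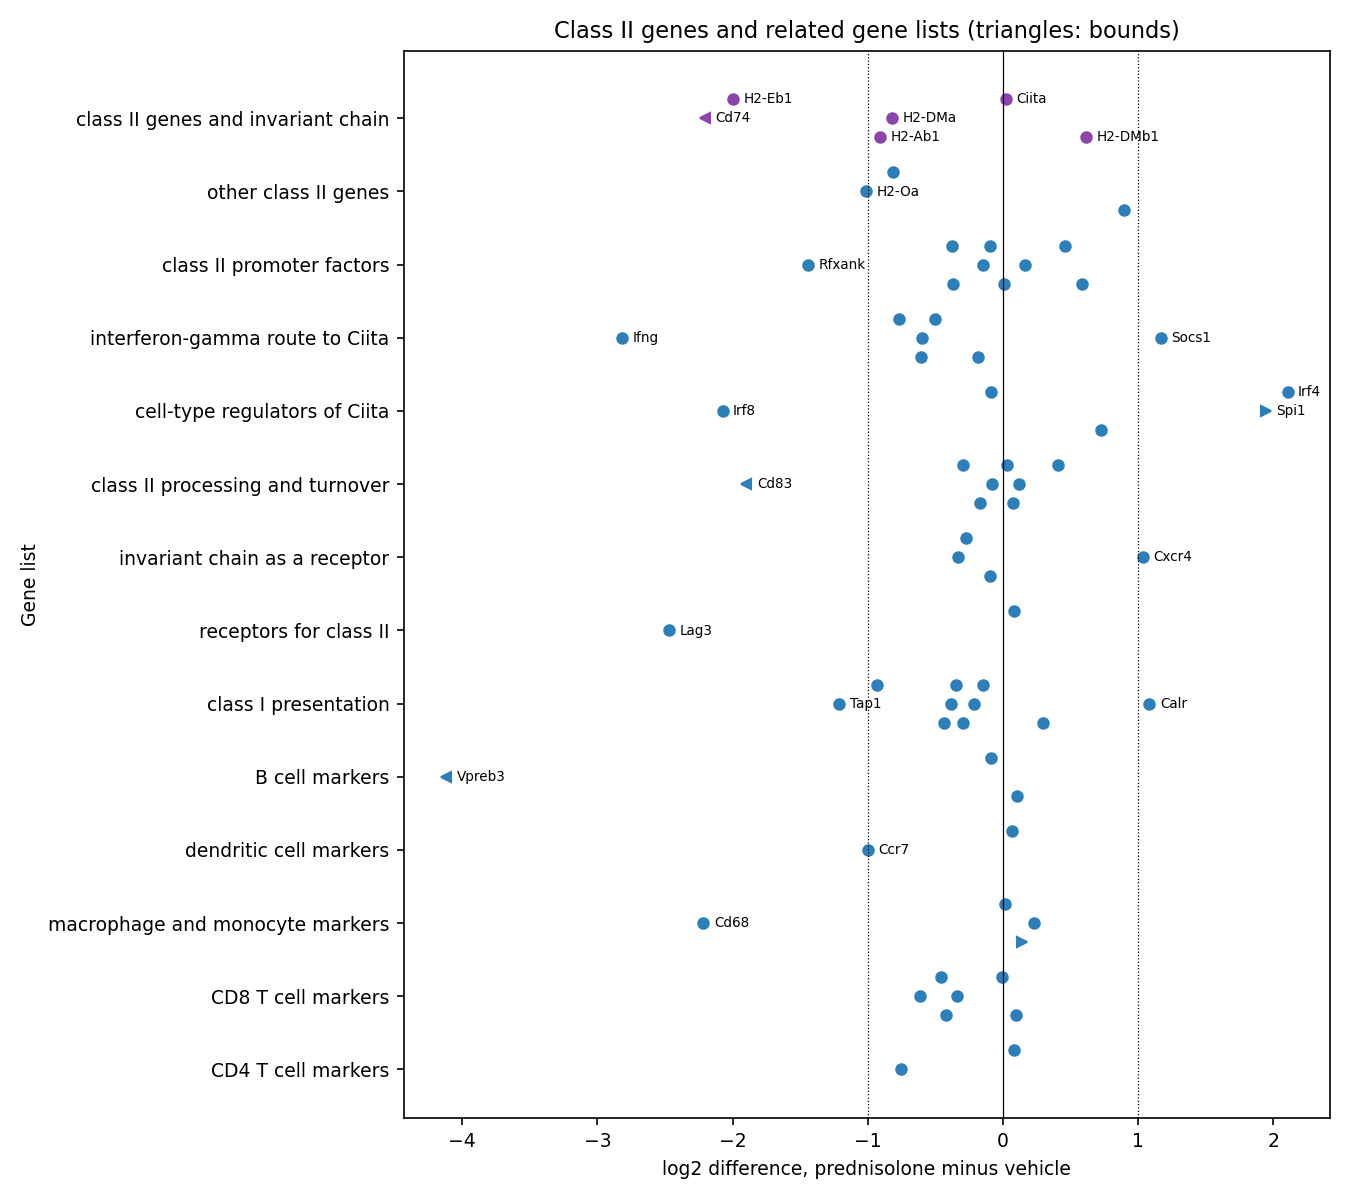
Log2 difference (prednisolone minus vehicle) of each gene with a value, by list, with dotted lines at 2-fold and triangles for bounds. Names are given for the class II genes and for genes at least 2-fold apart. In the list of genes leading from interferon-γ to Ciita, 6 of the 7 points lie below 0. The same holds for 8 of 10 in class I presentation and 5 of 6 among CD8 T cell markers. Over all genes with a value, 6585 of 13136 lie below 0.

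Class II transcripts in a T cell culture can come from other cells, so the markers of those cells are given beside the class II values. Of 8 B cell markers, 2 were well above background with prednisolone and 3 with vehicle on unflagged probes. The summed level of the list, without the flagged Cd79b, was 0.180 with prednisolone and 0.674 with vehicle, in units of the 75th percentile. Each summed level takes the brightest unflagged probe of every gene, whether or not it was well above background. Ms4a1 and Cd79a, B cell surface genes, did not stand well above background on either array. Vpreb3, a B lineage gene, gave 9.16 ± 2.98 intensity units with prednisolone and 211.6 ± 21.4 with vehicle, at least 17.4-fold lower, with −1.88 (log2) after normexp. Most of the summed B cell level with vehicle, and all of its fall with prednisolone, came from the Vpreb3 probe. The other measured B cell markers were Cr2, at 0.10 ± 0.27, and Pax5, at −0.09 ± 0.44, and the median of the 3 was −0.09. A second Cr2 probe, well above background with vehicle alone, had 10.1 ± 2.85 with prednisolone and 24.7 ± 3.76 with vehicle. The Cd79b probe, flagged on the vehicle array and not used, had 1623 ± 162 intensity units with prednisolone and 1063 ± 106 with vehicle, a difference of 0.66. It was well above background on both arrays and brighter than every B cell probe in the sums. The fall in the sum is therefore that of the unflagged probes alone. Of 8 dendritic cell markers, 2 were well above background on each array, with summed levels of 151 with prednisolone and 201 with vehicle. These were Ccr7, which T cells also express (−1.001 ± 0.14, and −0.76 with spike-in scaling), and 1 of 2 probes for Siglech (0.06 ± 0.20). Nearly all of both dendritic cell sums came from Ccr7 and Siglech. The bright Siglech probe had 37873 intensity units with prednisolone and 37517 with vehicle. The other Siglech probe had 2.62 and 2.78, not well above background on either array, and which of them reports the gene was not tested. Flt3, Itgax, Zbtb46 and Clec9a did not stand well above background on either array.

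Of 9 macrophage and monocyte markers, 4 were well above background with prednisolone and 3 with vehicle, with summed levels of 10.02 with prednisolone and 10.96 with vehicle. Lyz2, C1qa, Fcgr1 and Adgre1 did not stand well above background on either array. Cd68, a lysosomal protein gene, had 217 ± 21.9 intensity units with prednisolone and 1045 ± 105 with vehicle (−2.22 ± 0.20). Csf1r was 0.23 ± 0.21, while its flagged brighter probe was −0.23. Itgam was 0.02 ± 0.22, and Cd14, well above background with prednisolone alone, was at least 1.10-fold higher. The median of these 4 was 0.08, and most of the summed level came from 1 Itgam probe. In both the B cell and the macrophage lists 1 measured marker was at least 2-fold lower with prednisolone, and 0 were higher. The lower ones were Vpreb3, of 3 measured, and Cd68, of 4 measured. Over all 13136 measured genes, 7.81% were that much lower and 6.87% that much higher, and nothing is read from these small counts. The part of B cells, dendritic cells, macrophages and monocytes in the class II values was not tested.

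Class I presentation, which shows peptides to CD8 T cells, had a median of −0.32 over its 10 measured genes, beside −0.87 over the 6 class II genes, and the difference between the lists was not tested. It had 1 gene at least 2-fold lower, Tap1 (−0.97 with spike-in scaling), and 1 higher, the chaperone gene Calr (1.08 ± 0.20). B2m, the light chain shared by class I molecules, was −0.38 ± 0.20 and H2-D1 was −0.15 ± 0.20. Nlrc5, which encodes the relative of CIITA that serves class I promoters, was −0.21 ± 0.22, and its flagged brighter probe was −0.52.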

How the data were processed

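Expression was measured on 1-colour Agilent mouse arrays, 1 of prednisolone and 1 of vehicle cells, from 100 ng of total RNA labelled with Cy3, per the labels' protocols. The deposited scanner files hold linear intensity values made by the authors with Agilent Feature Extraction 12.0.3.1, per the file headers, background-subtracted within each array. The deposited value table is the same intensity times 1 constant per array (0.858 for prednisolone and 0.792 for vehicle), with column medians of 16.4 for prednisolone and 16.2 for vehicle. It is linear and not centred, and no source used here says how the constants were chosen.

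Here, control spots and spots flagged as outliers on either array were left out, log2 signals were centred on the 75th percentile over non-control spots, and spots of a probe were averaged. No spot was saturated. Flags fell on 8.92% of prednisolone and 7.20% of vehicle spots. Accessions without version were matched to RefSeq (GRCm38.p6), naming 33767 of 56605 probes and all 7 genes. A gene's value is the mean over probes well above background on both arrays. Where 1 array alone was, its brightest probe was set against the higher of its own signal and the dimmest one well above background on the other array, written "at least". The error of a gene's mean takes the probes' errors as independent. The motif TGACGTCA was added after the promoter windows were read. A gene each of the interferon-γ and B cell lists is not reported here and was left out of their counts. The 2-fold mark is a count, not a test. The members and lists were chosen with earlier results of these data known, as was the rule for named genes: all members, list genes at least 2-fold apart, the 4 brightest of a list and defining markers. Others (among them the neighbours on chromosome 17 and flagged probes) were named after their values were seen. Alternatives were normexp (limma 3.58.1, on median signals since the files hold no mean signals), 6 other scalings or value tables, 2 filters, flagged spots kept and the brightest probe. Calculations used Python 3.11.15 and R 4.3.3 and were tested on simulated data. The number of arrays sets the precision.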

Additional observations from a re-analysis of the deposited data

How the results depend on the processing

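The number of class II genes at least 2-fold lower with prednisolone was 2 under 9 of the 11 other settings, 3 without the filter on dim probes, where H2-Aa counted at −1.27, and 0 after normexp, where 3.31% of all genes were at least 2-fold lower. Their median moved to −0.63 with scaling on 8 spike-in probes, which shifted the median of all genes to 0.24 and made 68.0% of the genes past 2-fold higher ones, against 46.8% as reported. Ciita ranged from −0.04 to 0.52 and had no settled sign. H2-DMb2 reached 1.14 with spike-in scaling, past 2-fold, and 0.46 after normexp. The stricter filter gave −1.39 for H2-Eb1 and −1.21 for Cd74, both then bounds. H2-Ab1, H2-DMa, H2-DMb1, H2-Eb1 and Cd74 kept their sign under all 11. Normexp added 50 to every signal, which is close to the vehicle signals of Cd74 (56.2) and H2-Eb1 (64.0). Such an offset by itself shrinks the differences of dim probes. The causes of the shifts were otherwise not tested. No paired analysis was possible because each condition has 1 array, and leaving out a replicate was not possible either. H2-Aa, Cd74 and the second Ciita probe were limited by signal over background.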
